A study of Mus musculus with 8 samples.

Results

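Dendritic cells (DC) recovered from grafts of a mouse beta cell line were described, and they were the cells that the deposited annotation named DC. There were 1104 of them among 22441 CD45+ cells, with 502 in WT and 323 in Rnls mutant grafts at day 10, and 111 and 168 at day 17. The grafts were NIT-1 cells, an insulin-producing line from the NOD mouse, either wild type (WT) or with the gene Rnls deleted by CRISPR, placed under the skin of opposite flanks of the same immunodeficient NOD-background host. Every host also received splenocytes from recently diabetic NOD mice, so all 4 groups carried the autoimmune transfer. Living CD45+ cells were sorted 10 or 17 days after transfer, marked by a hashtag antibody per graft and pooled so that each of 4 libraries held the 4 grafts of 1 genotype and day. The study asked how loss of Rnls in the beta cells alters the immune cells around them. The methods name 2 host strains, NOD.scid and NSG, without saying which carried these grafts. Such hosts keep myeloid cells of their own, so DC of the host and of the donor spleen cannot be told apart. The Rnls transcript was not analysed here.

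DC sample antigen, carry it on MHC class II (MHC-II) to CD4 T cells and on MHC class I to CD8 T cells, and set the response through costimulatory ligands and cytokines. Conventional type 1 DC (cDC1), which bear Xcr1 and Clec9a, are specialised in cross-presenting material from dead cells. Type 2 DC (cDC2) mainly present to CD4 T cells, plasmacytoid DC (pDC) are known for type I interferon, and DC of any origin that have matured switch on Ccr7, the receptor that takes them to lymph nodes. In the NOD mouse, DC carry beta cell antigen from the islet to the pancreatic lymph node.

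Depth differed between grafts. DC per graft numbered from 12 to 147, and their summed UMIs (unique molecular identifiers, each 1 captured transcript) lay between 384268 and 1116616 at day 10 and between 75467 and 804588 at day 17. The median DC had 5836 UMIs at day 10 and 7984 at day 17. Levels are given below as CPM, in which the UMIs of a gene are scaled to all UMIs of the DC in that graft. A gene with 0 UMIs could have been at up to 2.69 CPM in the deepest graft and 39.8 CPM in the shallowest, which covers counting error only. There were 42 barcodes present in 2 libraries, 5 of them DC.

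The label was compared with its markers without a test, because the cell types were drawn from the same genes. Flt3, the receptor for the growth factor that DC depend on (chr5:147330741-147400489, GRCm38, minus strand), stood at 102 CPM in DC, 1.12 CPM in macrophages and 0.599 CPM in monocytes. Across the 16 grafts it lay between 64.9 and 169 CPM in DC and between 0 and 13.1 CPM in macrophages. Zbtb46, a transcription factor of conventional DC, stood at 125 CPM against 3.48 CPM in macrophages and 7.70 CPM in monocytes. Both markers were higher in DC than in macrophages in 16 of 16 grafts. In UMIs summed over grafts, all 9 pan-DC markers, all 13 cDC1 markers and all 16 markers of mature Ccr7 DC were higher in DC than in either other cell type. Of 12 pDC markers 11 were. Single grafts were less uniform, and Rab7b, Ciita and Itgax were above macrophages in 8, 9 and 10 of 16 grafts. The 14 cDC2 markers were less distinct, with 9 above macrophages and 10 above monocytes, and they summed to 1046 CPM in DC, 1188 CPM in macrophages and 927 CPM in monocytes. The largest contrasts included Xcr1, the receptor for XCL1, at 115 CPM against 0.710 CPM in macrophages, and Fscn1, an actin-bundling protein of mature DC, at 303 CPM against 1.55 CPM.

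Macrophage genes were low. None of 14 macrophage markers was higher in DC than in macrophages, and their summed level was 936 CPM in DC, 23787 CPM in macrophages and 11778 CPM in monocytes. C1qa, a complement component of tissue macrophages, was at 11.8 CPM in DC against 2072 CPM in macrophages. Adgre1, which encodes F4/80, was at 3.76 CPM against 223 CPM. Lyz2, encoding lysozyme, remained at 690 CPM in DC, below its 13839 CPM in macrophages and 9805 CPM in monocytes. Of the beta cell transcripts Ins1, Ins2 and Iapp, 31 UMIs were found over all CD45+ cells and 0 in DC. The marker levels by cluster and cell type show these contrasts side by side.

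**Figure D1:**
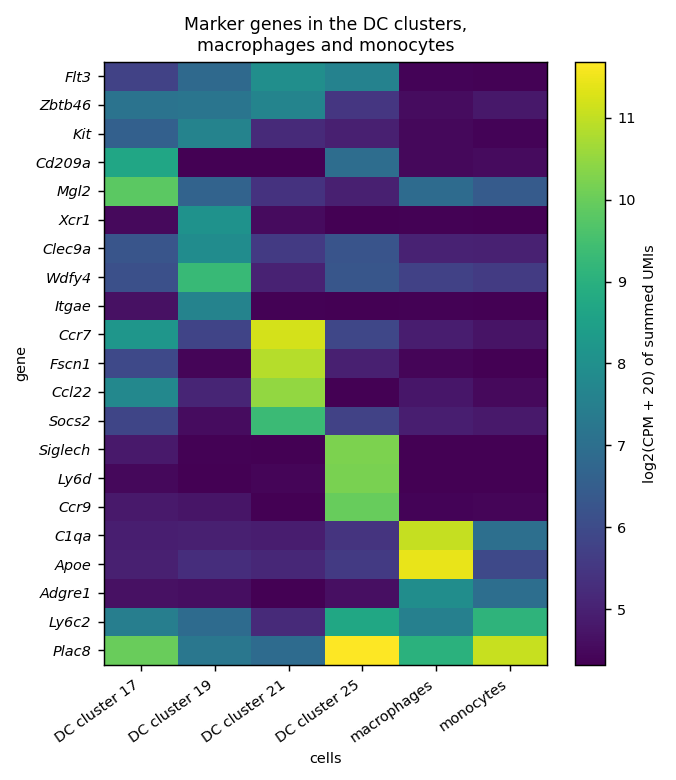
Level of 21 marker genes in the 4 DC clusters, macrophages and monocytes, as log2(CPM + 20) of UMIs summed over all grafts. Flt3 stood at 34.7, 94.2, 228 and 171 CPM in clusters 17, 19, 21 and 25, against 1.12 CPM in macrophages, and the macrophage gene C1qa at 11.8 CPM over all DC against 2072 CPM in macrophages.

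The DC were spread over 4 clusters of the deposited clustering, which are described by their genes without a test. Cluster 17 held 386 cells, or 34.96% of all DC. Its leading genes against the other DC were Cd209a (393 against 11.5 CPM), a C-type lectin of cDC2 and monocyte-derived DC, and Mgl2 (889 against 60.3 CPM), another lectin of cDC2. Ifitm3, Clec4n, Cd14 and the monocyte gene Ms4a4c also stood among its leading genes, and its cDC2 markers summed to 2598 CPM. Because genes of more than 1 class led it, it is called by its number.

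Cluster 19, with 341 cells or 30.9%, was cDC1-like, with Xcr1 at 251 CPM against 2.45 CPM in the other DC and cDC1 markers summing to 6246 CPM. Cluster 21, with 240 cells or 21.7%, was mature Ccr7 DC-like, with Ccr7 at 2332 CPM, Ccl22, a chemokine that draws regulatory T cells, at 1431 CPM, Fscn1 at 1842 CPM and Ccl5 at 6281 CPM. Cluster 25, with 137 cells or 12.4%, was pDC-like, with Siglech, a pDC lectin, at 1184 CPM, Ccr9 at 975 CPM and Ly6d at 1153 CPM. Zbtb46 was at 24.4 CPM in cluster 25 and between 120 and 180 CPM in the other clusters. The median cell of cluster 19 held 9743 UMIs, compared with 6357.5, 4879 and 4161 in clusters 17, 21 and 25. The sum of the monocyte markers was highest in cluster 25, at 4636 CPM, of which Plac8 alone made up 3271 CPM. Ly6c2 (399 CPM) and Ccr2 (249 CPM) were also highest in that cluster. Vcan and Chil3 were at 0 CPM in it, and F10 was at 1.63 CPM against 42.4 CPM in cluster 17.

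DC made up a smaller share of CD45+ cells at day 17. At day 10 they were 4.28%, 7.47%, 6.68% and 7.88% of CD45+ cells in the 4 WT grafts and 4.51%, 4.22%, 4.72% and 5.82% in the 4 Rnls mutant grafts. At day 17 the shares were 2.40%, 8%, 4.50% and 3.40% in WT grafts and 3.16%, 2.40%, 3.84% and 2.75% in mutant grafts. Every mutant graft at day 17 lay below every mutant graft at day 10, whereas WT grafts overlapped between the days, with the highest share of all in a day 17 graft of 350 cells. The mean difference was -1.89 percentage points (p = 0.0249, two-sided exact permutation test of days within genotype). Within mutant grafts it was -1.78 points (exact permutation p = 0.0286, the smallest that 4 against 4 allows) and within WT grafts -2.01 points (exact permutation p = 0.286). The test over both genotypes, like each such day test below, counted grafts as independent although WT and mutant grafts shared hosts.

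Leaving out any 1 of WT day 10 replicates 2, 3 and 4 or WT day 17 replicates 1, 3 and 4 moved the exact permutation p above 0.05, to at most 0.0665. Macrophages moved the other way, from between 7.41% and 26.9% of CD45+ cells per graft at day 10 to between 29.9% and 79.6% at day 17. A share says nothing of absolute numbers, since the sorted cells were not counted per graft here.

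Mutant grafts held a lower DC share than WT grafts when both days were averaged, by a difference of -1.65 percentage points (p = 0.0359, two-sided exact permutation test of genotypes within day). The group means were 6.58% ± 1.61 (SD, n = 4) in WT and 4.82% ± 0.698 in mutant grafts at day 10, and 4.57% ± 2.44 and 3.04% ± 0.620 at day 17. Within day 10 the difference was -1.76 points (exact permutation p = 0.114) and within day 17 it was -1.54 points (exact permutation p = 0.314). Without any 1 of 11 grafts the exact permutation p rose above 0.05, to at most 0.0722, and these were WT day 10 replicates 2, 3 and 4, WT day 17 replicates 2 and 3, and mutant day 10 replicates 1, 2 and 3 with day 17 replicates 1, 2 and 4. Taken as a share of macrophages, monocytes and DC together, the difference was -3.13 points (exact permutation p = 0.264). On the log2 scale of the share it was -0.446 (exact permutation p = 0.0547), and with the hashtag number as block the p was 0.0625, although no label says that a number marks 1 host. Each library held 1 genotype at 1 day, so library and group cannot be told apart here or in any comparison that follows.

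The make-up of the DC was different on the 2 days. Cluster 19, the cDC1-like cells, was 7.5%, 28.6%, 21.1% and 25.2% of DC in WT grafts at day 10 and 6.67%, 20.3%, 36.4% and 13.1% in mutant grafts. At day 17 it was 38.1%, 46.4%, 90% and 33.3% in WT grafts and 59.0%, 51.3%, 62.3% and 66.7% in mutant grafts. All but 1 of the day 17 grafts were above the highest day 10 graft, and that one, WT replicate 4, had 12 DC. The mean difference was 36.0 percentage points (exact permutation p = 0.000408, the smallest these permutations can give, adjusted p = 0.000816 over the 4 clusters). That p counts both grafts of a host as independent. Within a single genotype the difference was 31.4 points in WT and 40.7 points in mutant grafts (exact permutation p = 0.0286 in each). As a share of all CD45+ cells, cluster 19 differed by 0.955 points (exact permutation p = 0.0706).

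Cluster 17 went the other way. It was 37.5%, 39.5%, 46.1% and 48.3% of DC in WT and 32%, 37.5%, 42.9% and 43.0% in mutant grafts at day 10, and 28.6%, 25%, 8% and 16.7% in WT and 11.5%, 20.5%, 13.2% and 0% in mutant grafts at day 17. The value of 0% was 0 of 15 DC, which allows a share of up to 21.8% (exact Clopper-Pearson interval). No day 17 graft reached the lowest day 10 graft. The difference was -25.4 points (exact permutation p = 0.000408, adjusted p = 0.000816), and as a share of CD45+ cells it was -1.75 points (exact permutation p = 0.000816).

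Cluster 21, the mature Ccr7 DC-like cells, fell from means of 21.99% in WT and 33.4% in mutant grafts to 15.2% and 11.3%, a difference of -14.4 points (exact permutation p = 0.0290, adjusted p = 0.0386). The fall was -22.1 points within mutant grafts (exact permutation p = 0.0286) and the WT value was -6.81 points (exact permutation p = 0.429), and a test of the difference between these values was not run. Without mutant day 17 replicate 2, WT day 10 replicate 1, or WT day 17 replicate 1 or 3, the unadjusted exact permutation p for cluster 21 lay between 0.0510 and 0.0735. Cluster 25, the pDC-like cells, had means of 14.6%, 8.69%, 13.3% and 17.6% in WT and mutant grafts at day 10 and then at day 17, and its day difference of 3.80 points did not pass (exact permutation p = 0.227). Between genotypes no cluster's share of DC passed, with differences from -6.13 to 3.75 points and adjusted exact permutation p from 0.436 to 0.798. As a share of CD45+ cells, cluster 17 was lower in mutant grafts, with a difference of -0.768 points (unadjusted exact permutation p = 0.0273). As a share of DC it had an unadjusted p of 0.109, and of 0.0469 with the hashtag number as block, 0.0363 without WT day 17 replicate 3 and 0.0216 without cells with lymphocyte marker UMIs, all by exact permutation. As reported below, 7 of 12 tested cDC1 markers were also higher at day 17 inside cluster 19, so the genes that define a cluster themselves moved with day, and their part in the cluster shares was not tested.

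**Figure D2:**
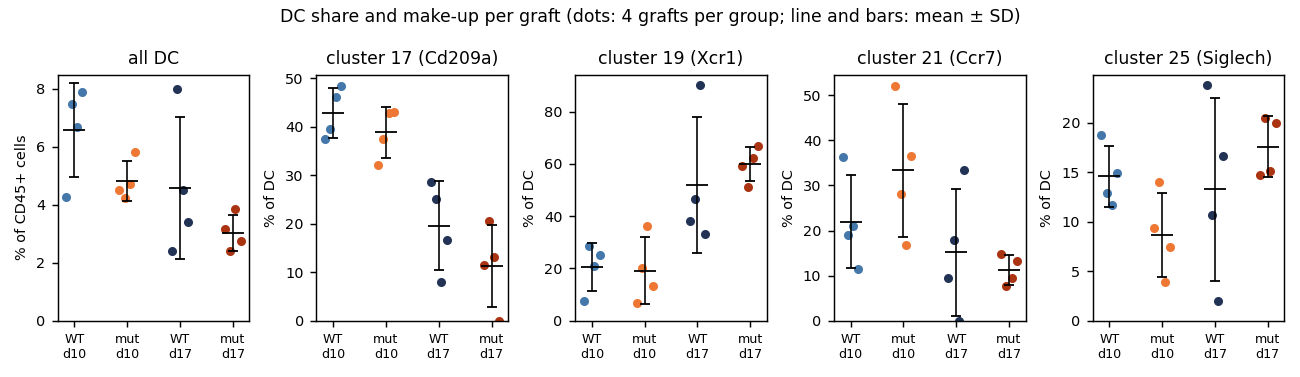
DC as a percentage of CD45+ cells and clusters 17, 19, 21 and 25 as a percentage of DC, 1 dot per graft with 4 grafts in each genotype and day, and lines with bars for the mean and SD. Cluster 19 averaged 20.6% and 19.1% of DC in WT and mutant grafts at day 10 and 52.0% and 59.8% at day 17, while cluster 17 averaged 42.8% and 38.8% and then 19.6% and 11.3%.

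Gene levels in DC were compared between days on counts summed per graft, so that the graft was the unit. Of 5700 genes tested over the 16 grafts, 1542 passed an adjusted p of 0.05 (27.1%), 764 higher at day 17 (13.4%) and 778 lower (13.6%), by the quasi-likelihood test of edgeR with p adjusted after Benjamini and Hochberg, as for every adjusted p of a gene below. The median log2 fold change over all tested genes was -0.0036. Member counts of the gene lists are read against these shares, and a gene scarce on 1 day could pass the low-count filter through the other day alone, so they describe the lists. Sums over all DC mix the clusters, and more cells of a type cannot be told apart from more RNA per cell in them.

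The 11 heat shock genes, which encode protein-folding chaperones, were all lower at day 17, with a median log2 fold change of -2.54. Hsp90aa1, encoding the inducible cytosolic HSP90 (chr12:110690605-110702728), was at 1309, 1866, 1515 and 2425 CPM in WT and 2574, 2242, 1371 and 1351 CPM in mutant grafts at day 10. At day 17 it was at 251, 363, 305 and 494 CPM in WT and 153, 312, 364 and 278 CPM in mutant grafts. The 2 days did not overlap, and the log2 fold change was -2.54 ± 0.20 (SE; adjusted p = 1.8e-07). Hspd1, the mitochondrial chaperonin, fell by 2.70 on the log2 scale, Hsph1, an HSP110 chaperone, by 3.26 and Dnaja1, an HSP40 co-chaperone, by 2.37.

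The summed heat shock level moved in the same direction in other cells, from between 11479 and 24308 CPM to between 3174 and 6172 CPM in macrophages and from between 10904 and 19847 CPM to between 2626 and 4523 CPM in monocytes. In DC the day 10 grafts lay between 10069 and 18459 CPM and the day 17 grafts between 3004 and 5771 CPM. CD4 T cells held Hsp90aa1 at 2597 and 2797 CPM in WT and mutant grafts at day 10 and at 425 and 380 CPM at day 17. The part of a shift shared by all cells of a library in the DC values was not tested.

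Genes induced by type I interferon were lower at day 17. Of 28 listed, 20 were tested, 17 were lower, 0 were higher, and the median log2 fold change was -2.26. Isg15, a ubiquitin-like protein conjugated to others in infected cells, was at 471, 285, 358 and 158 CPM in WT and 541, 232, 184 and 415 CPM in mutant grafts at day 10. At day 17 it was at 17.9, 83.7, 16.2 and 0 CPM in WT and 9.55, 29.5, 47.5 and 0 CPM in mutant grafts, where the 0 of WT replicate 4 allows up to 19.01 CPM and that of mutant replicate 4 up to 39.8 CPM. Each day 10 graft exceeded every day 17 graft, with a log2 fold change of -3.50 ± 0.42 (adjusted p = 9.08e-06). Oasl2, an antiviral protein of the oligoadenylate synthetase family, had a median of 83.7 CPM at day 10 and 10.4 CPM at day 17 (log2 fold change -3.34). Rsad2, encoding the antiviral enzyme viperin, fell by 2.77 on the log2 scale, and Irf7, a transcription factor that amplifies interferon, by 1.75.

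Genes induced by interferon gamma, the cytokine of activated T and NK cells, followed. Of 31 listed, 27 were tested, 22 were lower and 1 was higher, with a median log2 fold change of -1.15. Ifi47, an interferon-inducible GTPase, was between 87.5 and 146 CPM at day 10 with a median of 118 CPM, and between 21.1 and 39.8 CPM at day 17 with a median of 27.1 CPM. These ranges were separate, and the log2 fold change was -2.04 ± 0.16 (adjusted p = 1.8e-07). The guanylate-binding proteins Gbp2 and Gbp4, which attack vacuoles of pathogens, changed by -1.26 ± 0.17 and -2.40 ± 0.24. The higher member was Ifngr1, a chain of the interferon gamma receptor, by 1.08 ± 0.13.

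The windows before the start sites of 3 of these genes are shown because they carry the interferon-stimulated response element. The core searched for, GAAA and GAAA again after any 2 bases on either strand, is printed in capitals, overlapping matches run together, and each window is the 250 bases before the RefSeq start on GRCm38.p6, read along the gene. Isg15 has 3 overlapping matches in chr4:156200819-156201068 (minus strand), the first beginning 78 and the last 66 bases before the start. Cxcl10 has 1 in chr5:92348890-92349139 (minus strand), 213 bases before, and Gbp2 has 1 in chr3:142620413-142620662 (plus strand), 59 bases before and on the other strand.
Isg15: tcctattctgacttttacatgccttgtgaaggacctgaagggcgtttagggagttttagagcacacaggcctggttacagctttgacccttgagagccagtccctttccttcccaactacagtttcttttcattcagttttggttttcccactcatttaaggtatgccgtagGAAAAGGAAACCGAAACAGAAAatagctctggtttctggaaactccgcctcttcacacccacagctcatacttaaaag
Cxcl10: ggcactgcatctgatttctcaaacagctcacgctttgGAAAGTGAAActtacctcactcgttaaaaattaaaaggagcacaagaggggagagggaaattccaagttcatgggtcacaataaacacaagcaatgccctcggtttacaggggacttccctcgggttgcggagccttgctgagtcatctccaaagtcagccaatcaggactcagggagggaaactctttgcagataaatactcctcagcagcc
Gbp2: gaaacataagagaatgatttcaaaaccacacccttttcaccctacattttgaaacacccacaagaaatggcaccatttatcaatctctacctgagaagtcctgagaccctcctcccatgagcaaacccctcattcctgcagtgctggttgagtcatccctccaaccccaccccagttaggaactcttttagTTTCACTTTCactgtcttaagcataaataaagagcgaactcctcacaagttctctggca
The core was in 3.46% of 27025 promoter windows of this length and in 181 of the 4596 tested genes that matched the table. It was in 6 of the 13 matched type I interferon genes that were lower at day 17 and in 11 of the 17 matched interferon gamma genes that were lower. It was in 0 of the 8 matched heat shock genes. A second pattern searched for, TTC and GAA after any 3 bases, was in 324 of the 4596 matched tested genes. That pattern was in 1 of the 13 type I interferon genes, 9 of the 17 interferon gamma genes and 0 of the 8 heat shock genes. It is not marked in the windows above. A match describes the letters of the window and not a bound site.

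Chemokines that draw T cells were among the interferon genes that fell. Cxcl9, a ligand of CXCR3 on activated T cells, was at 2496, 3116, 3817 and 2110.5 CPM in WT and 1593, 2147, 1325 and 2970.0 CPM in mutant grafts at day 10. By day 17 it stood at 628, 338, 909.8 and 437 CPM in WT and 370, 522, 462 and 39.8 CPM in mutant grafts. Cxcl10, another CXCR3 ligand (chr5:92346638-92348889, minus strand), was at 1370, 1510, 1435 and 979 CPM in WT and 1449.5, 1022, 735 and 1349 CPM in mutant grafts at day 10. At day 17 it was at 108, 12.4, 205 and 108 CPM in WT and 103, 228, 422 and 0 CPM in mutant grafts. For both chemokines all day 10 grafts lay above all day 17 grafts, with log2 fold changes of -2.34 ± 0.27 (adjusted p = 6.64e-06) and -2.95 ± 0.38 (adjusted p = 2.08e-05).

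Among the chemokines 12 of 19 were tested, 5 were lower and 1 was higher, with a median log2 fold change of -0.42. The 5 were Cxcl9, Cxcl10, Cxcl16 and the CCR4 ligands Ccl17 and Ccl22. Ccl22 ran between 137 and 627 CPM (median 341 CPM) at day 10 and between 7.46 and 325 CPM (median 142 CPM) at day 17, so the days overlapped. Its log2 fold change of -1.41 ± 0.45 passed (adjusted p = 0.025), but not without WT day 10 replicate 1 (-1.22, adjusted p = 0.0544), mutant day 10 replicate 4 (-1.30, adjusted p = 0.0515) or mutant day 17 replicate 2 (-1.30, adjusted p = 0.0532). The higher one, Ccl8, is described with the genotypes.

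Checkpoint and costimulatory ligands were mixed. Cd274, which encodes PD-L1 (chr19:29367455-29388095), was at 559.5, 479, 563 and 348 CPM in WT and 794, 572, 341 and 758 CPM in mutant grafts at day 10. Its day 17 levels were 332, 118, 418 and 120.4 CPM in WT and 294, 211, 285 and 53.0 CPM in mutant grafts. Only WT day 17 replicate 3, at 418 CPM, exceeded any day 10 graft, and the log2 fold change was -1.15 ± 0.27 (adjusted p = 0.00349). With each genotype fitted alone it was -0.89 in WT grafts, which did not pass (adjusted p = 0.167). Pdcd1lg2, encoding PD-L2, changed by -1.79 ± 0.24 and Cd40, the receptor through which helper T cells license DC, by -1.36 ± 0.27 (adjusted p = 0.000949).

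Cd80 and Cd86 encode the CD28 ligands B7-1 and B7-2. Cd80 changed by -0.53 ± 0.17 (adjusted p = 0.0255), a call that was lost when any 1 of 7 grafts was left out, namely WT day 10 replicates 1 and 3, WT day 17 replicates 3 and 4, mutant day 10 replicates 1 and 4 and mutant day 17 replicate 2, with adjusted p up to 0.0794. Cd86 had medians of 377 CPM at day 10 and 455 CPM at day 17 and a log2 difference of 0.19 ± 0.12 that did not pass (adjusted p = 0.276). Over the list of 23, 16 were tested, 4 were higher and 6 were lower, with a median of -0.35. Havcr2, which encodes TIM-3, a receptor found on cDC1, was among the higher genes at 1.04 ± 0.19 (adjusted p = 0.000549).

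Transcripts of the MHC-II chains were higher at day 17. H2-Ab1, the beta chain of I-A (chr17:34257689-34269419), was at 5410, 6039, 6052 and 6030 CPM in WT and 3662, 5704, 7285 and 5996 CPM in mutant grafts at day 10. The day 17 levels were 7435, 7514, 8597 and 7203 CPM in WT and 7299, 7524, 7104 and 7447 CPM in mutant grafts. All but mutant day 10 replicate 3 lay below the day 17 range, and the log2 fold change was 0.39 ± 0.10 (adjusted p = 0.00872). H2-Aa, its partner chain, rose by 0.46 ± 0.09 (adjusted p = 0.00056), H2-Eb1 by 0.56 ± 0.08 (adjusted p = 8.01e-05) and Cd74, the invariant chain, by 0.37 ± 0.08.

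The list of 15 had 14 tested, 6 higher and 2 lower, with a median of 0.36. H2-Oa and H2-Ob, the inhibitors of peptide loading, rose by 1.19 and 1.35, whereas Ifi30, a lysosomal thiol reductase, and Ctss, the protease that trims the invariant chain, changed by -0.68 and -0.28. Of 19 genes of MHC class I presentation, all were tested, 7 were lower and 1, Wdfy4, a cross-presentation factor of cDC1, was higher. The 7 included the immunoproteasome subunits Psmb8 and Psmb10, the proteasome activators Psme1 and Psme2, and Nlrc5, the class I transactivator.

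Markers of the DC subsets differed between days in part. Of 13 cDC1 markers, 12 were tested, 10 were higher at day 17 and 0 lower, with a median of 1.35. Xcr1 was at 25.5, 72.5, 63.7 and 44.5 CPM in WT and 10.4, 54.4, 87.5 and 44.2 CPM in mutant grafts at day 10, and at 117, 109, 357 and 120.4 CPM in WT and 282, 177, 248 and 239 CPM in mutant grafts at day 17. No day 17 graft fell to the day 10 range, and the log2 fold change was 2.03 ± 0.31 (adjusted p = 0.000101). Clec9a, the receptor for actin exposed on dead cells, rose by 1.73 ± 0.20 (adjusted p = 6.21e-06), Cadm1, an adhesion molecule of cDC1, by 2.14 ± 0.17 (adjusted p = 1.8e-07), and Tlr3, the sensor of double-stranded RNA, by 2.95 ± 0.31.

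The transcription factors of cDC1 did not pass. Irf8 had a log2 difference of 0.06 ± 0.15 (adjusted p = 0.823) and Batf3 one of 0.07 ± 0.20 (adjusted p = 0.824). Flt3 had a difference of 0.42 ± 0.18 (adjusted p = 0.0847), which passed at 0.54 without mutant day 10 replicate 1 (adjusted p = 0.0212), and Zbtb46 one of 0.16 ± 0.18 (adjusted p = 0.554). Of the 9 pan-DC markers 3 were higher, Dpp4, Kit and Cd83.

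Of 16 mature Ccr7 DC markers, all tested, 12 were lower and 0 higher, with a median of -1.24. Ccr7 itself (chr11:99144196-99155077, minus strand) was at 996, 423, 580.3 and 314 CPM in WT and 999, 693, 318 and 901 CPM in mutant grafts at day 10. The values at day 17 were 247, 558, 55.9 and 538 CPM in WT and 327, 185, 214 and 186 CPM in mutant grafts. Most day 17 grafts were below the day 10 range, WT replicates 2 and 4 and mutant replicate 1 were inside it, and the log2 fold change was -1.18 ± 0.35 (adjusted p = 0.0182). Of the cDC2 markers 9 of 14 were tested and 2 were lower, Tnip3 and the transcription factor Irf4 (-1.54 ± 0.35, adjusted p = 0.00311), and Cd209a had -0.42 ± 0.44 (adjusted p = 0.508). Cd209a passed without the low-count filter (-0.52, adjusted p = 0.0325). It also passed without cells with 2 or more lymphocyte marker UMIs (-4.27, adjusted p = 0.00233). Among 12 pDC markers 11 were tested, Siglech was higher by 1.47 ± 0.33 and Ly6d was lower.

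**Figure D3:**
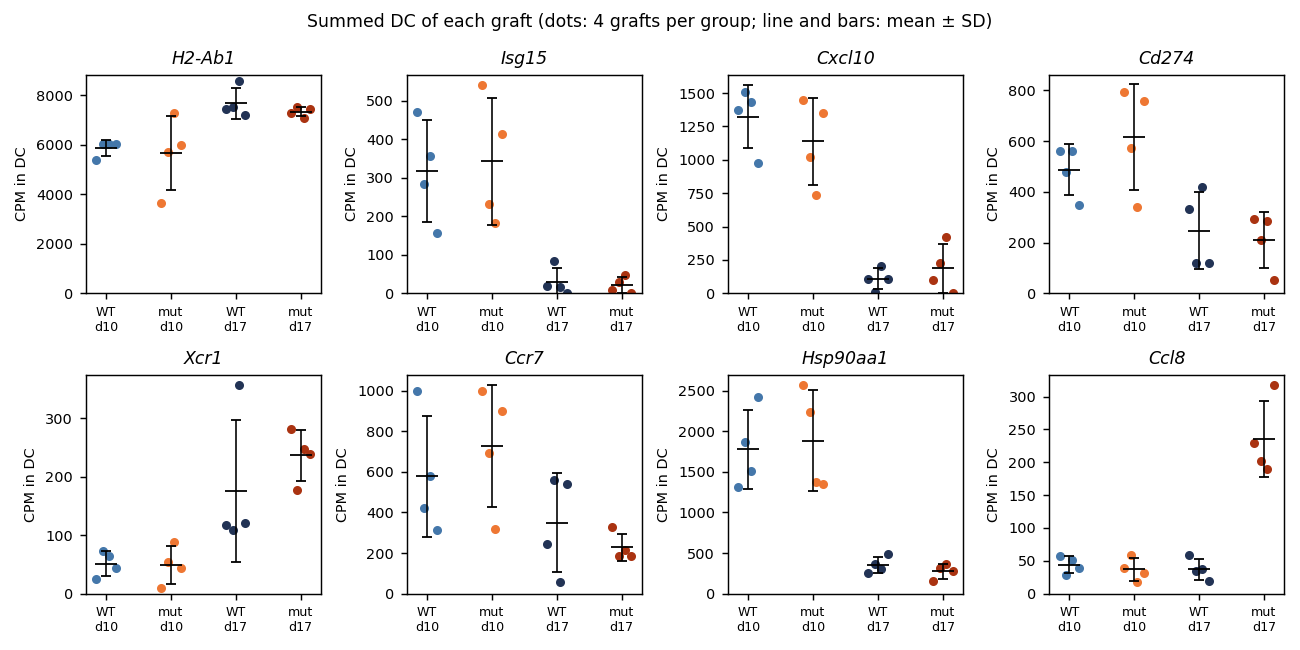
Levels in DC of H2-Ab1, Isg15, Cxcl10, Cd274, Xcr1, Ccr7, Hsp90aa1 and Ccl8 in CPM, 1 dot per graft with 4 grafts in each genotype and day, and lines with bars for the mean and SD. Isg15 lay between 158 and 541 CPM at day 10 and between 0 and 83.7 CPM at day 17, and Ccl8 was at 190.0 CPM or more in all 4 mutant grafts at day 17 and at most 59.1 CPM in all other grafts.

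Cytokine transcripts showed few differences. Of 21 listed, 8 were tested and 1 passed, Osm, encoding oncostatin M, which lay between 12.6 and 44.2 CPM at day 10 and between 0 and 24.8 CPM at day 17 (log2 fold change -1.33 ± 0.38, adjusted p = 0.0148). Il12b, the p40 chain of IL-12 and IL-23, was at 218, 105, 134 and 82.2 CPM in WT and 101, 236, 25.6 and 152 CPM in mutant grafts at day 10. By day 17 the values were 0, 623, 16.2 and 57.0 CPM in WT and 205, 249, 185 and 119 CPM in mutant grafts. The WT grafts at day 17 held both the lowest and the highest value, and the log2 difference of 0.58 ± 0.58 did not pass (adjusted p = 0.489) and was -1.02 without WT replicate 2. Without the low-count filter the difference of Il12b passed (0.49, adjusted p = 0.0341). Il15, which sustains CD8 T and NK cells, differed by -0.66 ± 0.26 (adjusted p = 0.0683), and Tgfb1 by 0.31 ± 0.17 (adjusted p = 0.183).

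Immediate early genes, which cells switch on within minutes of a stimulus, were higher at day 17. Of 23 listed, 22 were tested, 15 were higher and 0 lower, with a median of 0.71. Nr4a1, a nuclear receptor induced by activation, was at 18.6, 63.6, 23.1 and 50.3 CPM in WT and 70.3, 42.6, 52.8 and 53.4 CPM in mutant grafts at day 10, and at 121, 217, 159 and 114 CPM in WT and 196, 181, 172 and 252 CPM in mutant grafts at day 17. The days did not overlap, and Nr4a1 rose by 1.89 ± 0.22. Fosb, an AP-1 subunit, rose by 1.78 ± 0.19.

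Of 18 glycolysis genes 15 were tested, 3 were lower, among them Hk2, encoding hexokinase 2 (-1.30 ± 0.16), and 1, Pfkp, was higher. Without WT day 17 replicate 3, 8 of 16 glycolysis genes were lower. Of 20 genes of lipid uptake and cholesterol 14 were tested, 4 were higher, among them the fatty acid receptor Cd36, and 4 were lower, among them Hmgcs1, an enzyme of cholesterol synthesis. Of 24 cell cycle genes 13 were tested and 0 passed in either direction. Of 33 DC transcription factors 30 were tested, 6 were higher and 5 were lower, the latter including Irf4 and the NF-kappaB members Nfkb1, Nfkb2 and Relb. Il1rn, encoding the IL-1 receptor antagonist, was outside these lists and among the strongest falls (-3.18 ± 0.31), from a median of 269 CPM to 24.8 CPM.

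Within each genotype of the same fit, 579 genes passed between days in WT and 830 in mutant grafts. With WT grafts fitted alone, the calls of Oasl2 (-1.83), Rsad2 (-1.73), Gbp2 (-0.80), Pdcd1lg2 (-1.27), Ccr7 (-0.76), Ccl22 (-1.88), Osm (-0.70) and Siglech (0.66) did not pass. With WT grafts alone, 7 of 21 type I interferon genes, 10 of 27 interferon gamma genes, 1 of 15 mature Ccr7 DC markers and all 11 heat shock genes were lower, and 5 of 12 cDC1 markers were higher. With mutant grafts alone these counts were 12 of 17, 18 of 26, 11 of 16 and all 10, and 8 of 12. Over all genes, the fit of WT grafts alone called 404, with 216 higher and 188 lower. The fit of mutant grafts alone called 812, with 447 higher and 365 lower, so the list counts of the 2 fits are not on 1 footing. A difference between the genotypes in these list counts was not tested. In mutant grafts alone the calls of Ccl22 (-0.89), Irf4 (-0.83) and Cd74 (0.27) did not pass. H2-Ab1 passed in neither genotype alone (0.41 in WT and 0.43 in mutant grafts).

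Macrophage RNA was measured beside these changes because macrophages were more frequent at day 17. Of the 14 macrophage markers 4 were tested in DC, Apoe and Lyz2 were higher and Fcgr1 was lower. Their summed level per graft was 414 to 1332 CPM at day 10 and 896 to 1749 CPM at day 17. Apoe, a lipid carrier, had a median of 3.99 CPM in DC at day 10 and 45.6 CPM at day 17, but CD4 T cells, which should lack it, held 9.60, 2.73, 45.7 and 179 CPM in WT and mutant grafts at day 10 and then at day 17, against 5.44, 2.35, 20.6 and 74.7 CPM in DC. Its level in DC was thus below that of T cells in every group. For Cxcl9 and H2-Ab1 the T cells lay far below the DC, with at most 18.4 CPM of Cxcl9 and 232 CPM of H2-Ab1 in any group.

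**Figure D4:**
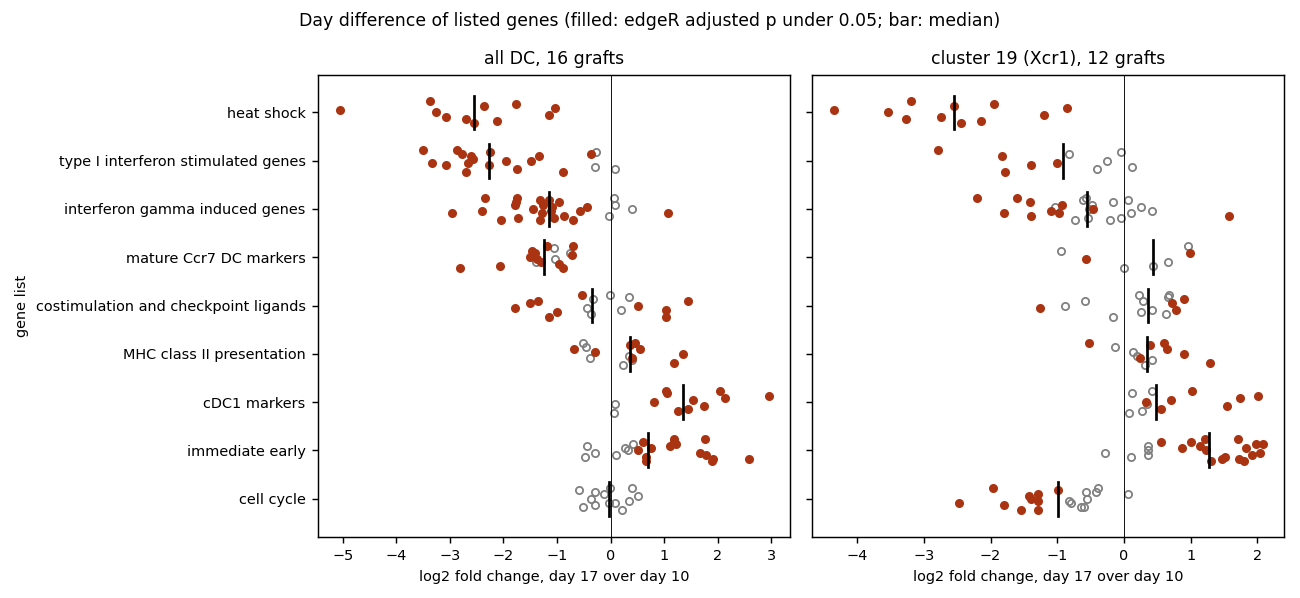
Log2 fold change of day 17 over day 10 for the tested genes of 9 lists, in all DC (16 grafts, left) and within cluster 19 (12 grafts, right). Filled points passed an adjusted p of 0.05 and bars mark list medians. All 11 heat shock genes lie below 0 in both panels. Mature Ccr7 DC markers have a median of -1.24 for the 16 tested over all DC. Within cluster 19 only 7 of them were tested, with a median of 0.44, 1 higher and 1 lower, so the medians cover different genes.

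Comparing days within a cluster holds the annotated subset fixed. Cluster 19 had at least 10 cells in 12 grafts. Of the WT grafts at day 17 only replicates 2 and 3 entered, with 13 and 45 cells, since replicates 1 and 4 had 8 and 4. Over the 12 grafts 1144 of 4659 genes passed in cluster 19 (24.6%), 592 higher (12.7%) and 552 lower (11.8%). All 11 heat shock genes were lower there too. Of the type I interferon genes 5 of 10 tested were lower, and of the interferon gamma genes 9 of 24 were lower and 1 higher, or 15 of 25 lower without WT day 17 replicate 3. Isg15 changed by -2.78 ± 0.45 (adjusted p = 0.000144), Cxcl9 by -2.20 ± 0.27 and Ifi47 by -1.61 ± 0.29. Cd274 differed by -0.17 ± 0.31 and did not pass (adjusted p = 0.743).

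Within the cDC1-like cells 7 of 12 tested cDC1 markers were higher at day 17. Clec9a rose by 1.55 ± 0.18 (adjusted p = 3.09e-06), Tlr3 by 2.00 ± 0.30 and Xcr1 by 1.03 ± 0.19. Flt3 rose by 1.01 ± 0.22 (adjusted p = 0.00181), Cd86 by 0.78 ± 0.14 and Cd83, a maturation marker that stabilises MHC-II at the surface, by 0.89 ± 0.14. MHC-II genes had 6 higher and 1 lower of 12 tested, with H2-Eb1 at 0.65 ± 0.08. H2-Ab1, at 0.24 ± 0.08 (adjusted p = 0.0358), lost its call in 11 of the 12 fits that left out 1 graft, and kept it without mutant day 10 replicate 4.

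In the cDC1-like cells 10 of 19 tested cell cycle genes were lower at day 17, with a median of -0.99. The count was 5 of 20 without mutant day 10 replicate 2, 7 by DESeq2 and 2 of 11 without the 5% of DC that had the most UMIs. They included the DNA helicase subunit Mcm3 (-1.79 ± 0.33), the replication clamp Pcna (-0.99 ± 0.24) and Tyms, which makes thymidylate (-1.29 ± 0.40). Pcna lost its call without those deepest cells (-0.57, adjusted p = 0.223), and the count of called genes in cluster 19 was then 640. Immediate early genes were higher in 17 of 22 tested, with Nr4a2 at 2.04 ± 0.19.

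The other clusters held fewer cells at day 17, between 30 and 41, and were fitted with any graft that had at least 1. In cluster 17, 300 of 2869 genes passed (10.5%) over 15 grafts, higher in 4.84% and lower in 5.61% of those tested. Heat shock genes were lower in 10 of 11 tested there, type I interferon genes in 10 of 18 and interferon gamma genes in 10 of 24, with 1 higher. H2-Eb1 rose by 0.78 ± 0.11, Cd86 by 0.95 ± 0.20 (adjusted p = 0.00433) and Il1b, encoding interleukin 1 beta, by 0.94 ± 0.15. Irf8 fell in cluster 17 by 1.34 on the log2 scale (SE 0.31, adjusted p = 0.00836), and Cd209a had 0.58 ± 0.31 (adjusted p = 0.254).

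In cluster 21, the mature Ccr7 DC-like cells, 134 of 1425 genes passed (9.4%) over 15 grafts, higher in 3.3% and lower in 6.11%. Ccr7 differed by -0.24 ± 0.19 (adjusted p = 0.462) and Ccl22 by -0.31 ± 0.31 (adjusted p = 0.566) inside the cluster, and 4 of 16 mature Ccr7 DC markers were lower. Cxcl10 fell by 3.74 on the log2 scale (SE 0.39, adjusted p = 3e-06) and Cd274 by 1.33 (SE 0.21, adjusted p = 0.000675). Il12b rose by 1.72 ± 0.49 (adjusted p = 0.0331), from 477 to 1713 CPM over the summed cells of each day. Those sums pool grafts and rest on 30 cells at day 17, and values with single grafts left out are not given for this gene in the cluster. Over all DC, WT day 17 replicate 2 was far above its group in Il12b, at 623 CPM, and the day difference was -1.02 without it.

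Day changes in DC were tested against those of macrophages and of monocytes from the same grafts, with the graft as a block. The day difference of DC was not equal to that of macrophages for 1009 of 8985 genes (11.2%), 467 higher (5.2%) and 542 lower (6.03%), and not equal to that of monocytes for 455 of 7194 genes (6.32%), 241 higher (3.35%) and 214 lower (2.97%), over 16 and 15 grafts. Both comparisons use the same DC sums. Macrophages themselves had 4752 of 9331 genes past the threshold between days (50.9%, with 25.6% higher and 25.3% lower) and monocytes 1167 of 8092 (14.4%, with 6.31% higher and 8.11% lower).

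The day differences of some interferon genes, among them the GTPases Ifi47, Gbp4 and Igtp, were lower in DC than in both other cell types. Ifi47 changed by -2.04 in DC, -0.43 in macrophages and -0.65 in monocytes, a difference of -1.76 ± 0.18 from macrophages (adjusted p = 2.1e-06) and -1.50 ± 0.23 from monocytes (adjusted p = 4.4e-04). Gbp4 differed by -1.69 and -1.78, Igtp by -1.15 and -1.33 and Oasl2 by -2.38 and -2.14. Against macrophages 11 of 30 tested interferon gamma genes had a lower day difference in DC and 3 a higher one, and against monocytes 13 of 30 were lower and 1 was higher. The count of 11 became 7 without mutant day 10 replicate 2. Gbp2 differed by -0.66 from macrophages, a call lost without WT day 10 replicate 1 or 3, mutant day 10 replicate 2 or mutant day 17 replicate 1 or 3 (adjusted p up to 0.0691).

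For other interferon genes the difference from macrophages did not pass, while that from monocytes did. Isg15 differed by -0.22 from macrophages (adjusted p = 0.729) and by -1.88 from monocytes (adjusted p = 0.00455). For Cxcl10 these differences were -0.62 (adjusted p = 0.433) and -1.98 (adjusted p = 0.00741). Cd274 differed by -0.10 from macrophages (adjusted p = 0.832) and by -0.78 from monocytes (adjusted p = 0.0353), the latter lost in 10 of 15 fits that left out a graft.

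Of 14 tested MHC-II genes, 6 had a higher day difference in DC than in monocytes and 8 did not pass. H2-Ab1 differed by 1.04 ± 0.16 (adjusted p = 4.4e-04), H2-Aa by 0.82 and H2-Eb1 by 1.12. Against macrophages 3 of 15 tested MHC-II genes were higher and 1 was lower, with 6 higher without WT day 17 replicate 4. H2-Ab1 differed from macrophages by 0.30 ± 0.14 (adjusted p = 0.183). It passed without that graft (0.40, adjusted p = 0.0373) and with at least 20 cells per graft (0.43, adjusted p = 0.0294). Without cells with 2 or more lymphocyte marker UMIs it passed too (0.54, adjusted p = 0.00611). Of 23 tested immediate early genes, 14 had a higher day difference in DC than in macrophages and 0 a lower one. Against monocytes 8 of 23 were higher and 1 was lower. Nr4a1 had a higher day difference in DC than in macrophages, by 2.33 ± 0.28 (adjusted p = 9.6e-06), while its difference from monocytes was 0.13 (adjusted p = 0.904). Hsp90aa1, with day changes of -2.54 in DC, -2.89 in macrophages and -2.96 in monocytes, differed by 0.32 in both (adjusted p = 0.367 and 0.319). Of 11 heat shock genes, 3 had a higher day difference in DC than in macrophages and 0 a lower one. The counts against monocytes were also 3 and 0. The latter 3 became 1 without mutant day 17 replicate 3 or WT day 10 replicate 1.

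**Figure D5:**
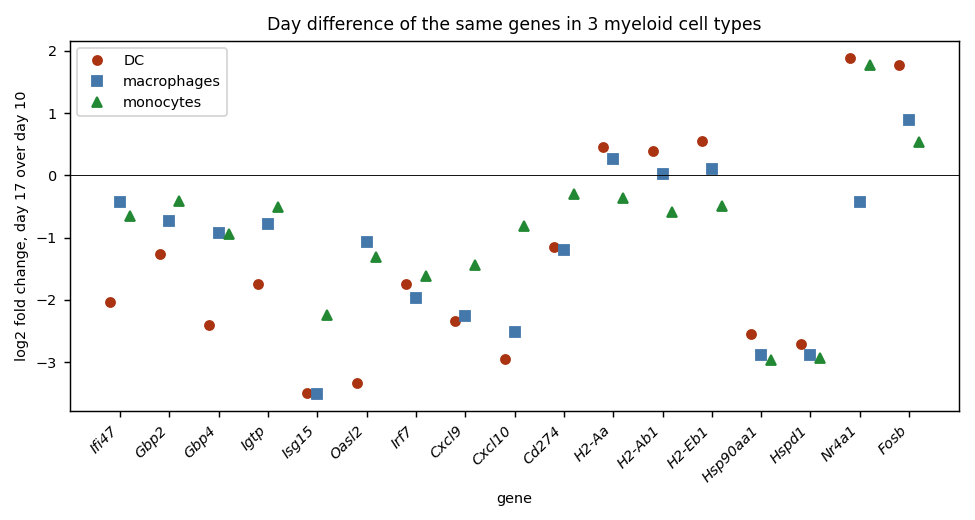
Log2 fold change of day 17 over day 10 for 17 genes in DC, macrophages and monocytes, from the sums of each cell type per graft. Ifi47 lies at -2.04 in DC against -0.43 and -0.65 in the others, whereas Hsp90aa1 lies at -2.54, -2.89 and -2.96.

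Few DC genes passed when the beta cell genotypes were compared. Averaged over days, 0 of 5700 genes passed (0%) by edgeR's quasi-likelihood test, 315 had an unadjusted p under 0.05, and DESeq2 called 1. At day 10, 1 gene passed (0.0175%), with 308 at an unadjusted p under 0.05, and at day 17 also 1 (0.0175%), with 333. The difference between the day changes of the genotypes passed for 2 genes (0.0351%). In simulated counts of the same size, a log2 change of 2 was found for 97.3% of 185 changed genes at day 10 and 92.9% of 182 at day 17, among 5425 genes. These shares leave out those of the 200 changed genes that failed the low-count filter, and 12 unchanged genes were called on each day. Smaller genotype changes were not simulated, so the shares do not cover differences of the size given next.

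The 22 genes followed in every comparison, which include the MHC-II chains, Cd274, Cd80, Cd86, Cd40, Ccr7, Xcr1, Clec9a, Cxcl9, Il12b and Tgfb1, gave adjusted p values of 0.863 or more for genotype averaged over days. Their log2 differences ran from -0.61 for Cxcl9 to 0.76 for Ccl22 with a median SE of 0.23. At day 17 they ran from -0.67 for Osm to 1.24 for Ccl22 with a median SE of 0.34, and the lowest adjusted p was 0.893. H2-Ab1, for example, ran from 7104 to 7524 CPM in mutant and from 7203 to 8597 CPM in WT grafts at day 17.

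Ccl8, a chemokine that draws monocytes and T cells (chr11:82115185-82116799), was the gene called at day 17. It was at 58.3, 34.1, 37.3 and 19.01 CPM in WT and 229, 202, 190.0 and 318 CPM in mutant grafts at day 17, and at 58.0, 27.8, 51.7 and 39.7 CPM in WT and 39.0, 59.1, 18.1 and 32.0 CPM in mutant grafts at day 10. The 4 mutant grafts at day 17 stood above all others, by a log2 difference of 2.53 ± 0.32 from WT (adjusted p = 0.000852), and its day change differed between genotypes by 2.83 ± 0.44 (adjusted p = 0.0102). That second call was lost without WT day 10 replicate 3 or mutant day 10 replicate 4 (adjusted p = 0.0501 and 0.0504). Without the DC that carried 2 or more lymphocyte marker UMIs the difference at day 17 was 1.79 (adjusted p = 0.320). Within cluster 19 the difference at day 17 was 2.44 ± 0.37 (adjusted p = 0.00586), with replicates 2 and 3 as the only WT grafts of that day.

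As a share of UMIs, the level of Ccl8 in DC was below that in T cells in every group. CD4 T cells held 86.6, 42.5, 103 and 549.7 CPM in WT and mutant grafts at day 10 and then at day 17, against 41.2, 34.3, 37.8 and 216 CPM in the DC of the same libraries. In mutant grafts at day 17, 75.6% of DC (127 of 168, median 6536.5 UMIs) and 68.6% of CD4 T cells (622 of 907, median 2298 UMIs) had a UMI of Ccl8. Macrophages held it at 1788 to 6806 CPM, with a log2 genotype difference of 0.51 at day 17 (adjusted p = 0.864). No expression of Ccl8 by DC is read from these values, and the part of RNA from other cells in its genotype difference was not tested.

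Gm10076, a predicted gene, was the gene called at day 10, with a log2 difference of mutant from WT of -1.14 ± 0.16 (adjusted p = 0.00389), and its day change differed between genotypes by 1.62 ± 0.23 (adjusted p = 0.00714). It was lower in mutant grafts at day 10 in macrophages too, at -0.94 ± 0.12 (adjusted p = 0.00243). It falls outside the rule by which genes were named and is given because it was the one gene passing. Each library was 1 genotype at 1 day, so the library and the genotype cannot be told apart.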

How the data were processed

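CD45+ cells of 16 grafts were profiled by droplet single-cell RNA sequencing (10x, 3' chemistry) in 4 libraries. The authors deposited, for 32285 genes, the raw counts of UMIs in each cell, with a table giving each cell's library, hashtag, cluster and cell type. The submitters' processing notes name Cell Ranger and mm10, with versions not given in the sources used here. How doublets were treated is likewise not given, and none were removed here. The deposited cells have passed the authors' filters, and a super-loaded pool can hold doublets with lymphocytes.

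Counts of cells named DC, macrophage or monocyte were summed per graft (library and hashtag), with at least 10 cells. Sums were tested with edgeR 4.0.16 in R 4.3.3 (TMM, filterByExpr, quasi-likelihood test, Benjamini-Hochberg adjustment over all tested genes, threshold 0.05), with 1 term per genotype and day. DC were tested against macrophages and monocytes with the graft as block. Clusters 17, 21 and 25, too sparse for 10 cells per graft, were fitted with at least 1. Shares were compared by two-sided exact permutation tests, with intervals at 95% confidence. Hashtagged grafts are the replicates, and p-values measure the spread between them. WT and mutant grafts shared hosts that no label identifies, so day tests over both genotypes counted grafts of the same host as independent. Same-numbered WT and mutant grafts deviated together with correlations from -0.1852 to 0.3346 and no label ties a number to a host, so they were not treated as pairs.

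The 481 genes of 30 lists (9 absent from the table), the marker genes and the cell group were chosen with earlier results of these data known. Genes named are list members past the threshold (at most 6 per list), the 10 with the smallest p per direction, and 22 genes named always. Levels against other cells used a pseudocount of 20 CPM, and a count of 0 was bounded by 3 UMIs. On simulated counts for the day comparison, 79.2% of 178 genes changed by 1 on the log2 scale were called among 5401 genes, and all 175 changed by 2 among 5420. Unchanged genes were called too, 16 beside 141 changed ones in the former and 8 beside 175 in the latter. All simulated counts took the spread of a gene from the trend over genes, so genes that vary more are not covered. Alternatives were DESeq2 1.42.0, no low-count filter, other cell minimums, cells left out by lymphocyte UMIs or depth, each graft left out, single genotypes and the hashtag number as a block. Promoter windows came from RefSeq (GRCm38.p6), and gene positions from the GRCm38 annotation.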

Additional observations from a re-analysis of the deposited data

Results flagged for a closer look

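In WT grafts at day 10, H2-Ab1 in DC was lowest in replicate 1, at 5410 CPM against 6030 to 6052 CPM in the others. In the same group, Ccl22 was highest in replicate 1, at 627 CPM against 267 to 279.5 CPM. In WT grafts at day 17, Xcr1 was highest in replicate 3, at 357 CPM against 109 to 120.4 CPM. In that group Il12b was highest in replicate 2, at 623 CPM against 0 to 57.0 CPM. These 4 are samples far from the rest of their group, out of 92 groups of 4 grafts examined, and chance marks about 1 in 20 groups.

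The day difference of Ccl8 in DC was larger in Rnls mutant than in WT grafts by 2.83 on the log2 scale (adjusted p = 0.0102, edgeR's quasi-likelihood test), at a share of UMIs below that of T cells. That of Gm10076 differed between the genotypes by 1.62 (adjusted p = 0.00714).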

How the results depend on the processing

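Of 2280 gene values recomputed for 102 genes and comparisons, 2181 kept their direction and side of the threshold, 79 no longer passed, 11 newly passed and 9 turned. The values that turned were, for day, Irf8 at -0.0234 (no low-count filter), -0.0200 (WT alone) and -0.106 (without WT day 17 replicate 3), Batf3 at -0.0922 (without the same graft) and -0.00157 (without cells with 2 or more lymphocyte marker UMIs), Flt3 at -0.186 and Il12b at -1.80 (same setting), Il12b at -1.02 (without WT day 17 replicate 2) and Ccl8 at -0.139 (WT alone). With each graft left out Irf8 ran from -0.106 to 0.135, Batf3 from -0.0922 to 0.178 and Il12b from -1.02 to 0.839. The lymphocyte setting removed 691 of 1104 DC, and a narrower list chosen after seeing the data removed 18. T, B and NK cell markers summed to 174, 163 and 121 CPM in DC, against 87.0, 105 and 102 CPM in macrophages. In cluster 25 the T and B cell markers summed to 827 and 1146 CPM. Whether these UMIs came from the DC themselves, from doublets or from stray RNA was not tested.

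The count of genes called between days was 1448 by DESeq2, 1830 without a filter (716 higher, 1114 lower), 935 without the lymphocyte marker cells, 404 in WT alone and 812 in mutants alone. It ran from 1267 to 1599 with each graft left out, from 870 to 1178 in cluster 19, 205 to 350 in cluster 17, 79 to 146 in cluster 21 and 189 to 254 in cluster 25. Cluster 19 had 640 without the deepest cells, and clusters 17 and 21 had 590 and 357 without a filter. DC against macrophages ranged over 748 to 1089 and against monocytes over 330 to 497. By DESeq2 the former had 56.4% of its calls higher, against 46.3% by edgeR. Genotype counts averaged over days, at day 10, at day 17 and for the difference of day changes were 1, 4, 3 and 12 by DESeq2 and 34, 37, 40 and 39 without a filter. With 20 cells per graft the day 10 count was 2 and that of the day changes 1, and without the lymphocyte marker cells the day 17 count and that of the day changes were 0. With each graft left out they ran over 0 to 1, 0 to 2, 1 to 2 and 0 to 4.

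With the hashtag number as replicate block, which the labels do not call a pairing, counts were 1477 for day, 0, 1, 1 and 2 for genotype, 960 for cluster 19, 217 for cluster 17, 92 for cluster 21 and 211 for cluster 25. Under that block the genotype difference in DC share was -1.65 and the day difference of cluster 21 was -14.4, neither passing, and the genotype difference of cluster 17 was -6.13, passing.

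The genotype difference in DC share did not pass among macrophages, monocytes and DC (-3.13) or on the log2 scale (-0.446). Cluster 19 did not pass for day as a share of CD45+ cells (0.955), nor cluster 21 without lymphocyte marker cells (-16.8). Cluster 25 turned to -0.149 as a share of CD45+ cells and to -2.25 with at least 30 DC per graft. For genotype, cluster 17 passed at -12.0 (lymphocyte setting) and -0.768 (of CD45+ cells), and clusters 19, 21 and 25 turned to -0.588, -0.0324 (both of CD45+ cells) and 1.39 (lymphocyte setting), and cluster 25 to 0.949 without WT day 17 replicate 1. With each graft left out, DC share ran from -2.46 to -1.53 for day and -2.03 to -1.08 for genotype. Clusters 17, 19, 21 and 25 ran from -26.9 to -23.5, 29.7 to 39.1, -17.5 to -11.3 and 2.05 to 5.69 for day, and from -8.06 to -4.25, 0.0778 to 9.52, 0.644 to 6.78 and -2.69 to 0.949 for genotype. The cause of these shifts was not tested. The lymphocyte setting within cluster 19 was not run, as it could not be fitted. Depth was least in mutant day 17 replicate 4, where 0 UMIs allows up to 39.8 CPM.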

Other observations

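Cluster 25, the pDC-like cells, had 98 cells at day 10 and 39 at day 17, and 222 of 792 genes passed between days (28%) by edgeR's quasi-likelihood test over 16 grafts with at least 1 cell. Of 11 tested pDC markers 7 were higher at day 17 and 2 were lower. Siglech rose by 1.12 ± 0.18 on the log2 scale (adjusted p = 4.47e-05), and Ly6d fell by 3.65 (adjusted p = 1.54e-05). Iigp1, an interferon-inducible GTPase, fell by 4.40 and Ly6a, a surface antigen induced by interferon, by 2.06. Hsp90aa1 fell by 2.94. Cd209a rose by 3.80 ± 0.62 and Ccr2, the receptor for CCL2, by 2.26 ± 0.36. Ccr9, another pDC marker, differed by -0.23 ± 0.22 (adjusted p = 0.486).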
